A study of Mus musculus with 8 samples.

Results

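The genes described here are 10 mouse genes of luminal acidification in the epididymis, taken by gene symbol from the probe sets of an Affymetrix array. They are 5 subunits of the vacuolar proton pump (Atp6v1a, Atp6v1b1, Atp6v1g3, Atp6v0a4 and Atp6v0d2), 2 carbonic anhydrases (Car2 and Car12), the transcription factor gene Foxi1, the anion channel gene Cftr and the sodium-proton exchanger gene Slc9a3. All 10 were found among 19411 genes with a probe set, each on a single probe set, and 9 of them passed a filter that removed the dimmest 30% of genes (log2 5.69 and below on average over all arrays). Car12 did not pass and was described but not tested. The genes lie on mouse chromosomes 4 (Atp6v0d2), 6 (Atp6v1b1, Atp6v0a4 and Cftr), 1 (Atp6v1g3), 16 (Atp6v1a), 3 (Car2), 9 (Car12), 11 (Foxi1) and 13 (Slc9a3). Cftr lay below that level on both epididymis arrays and on 1 sperm array, so it passed the filter through the sperm arrays in which it was bright, and a difference between sperm and epididymis was built into its passing. Its brightest readings were those of low protein and caloric restriction sperm, so a diet difference was partly built in as well.

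Male C57/Bl6 mice received a control, a low protein or a caloric restriction diet. Sperm washed out of the caudal epididymis was profiled on 3 control, 2 low protein and 1 caloric restriction array, and epididymal tissue on 1 control and 1 low protein array. Control and low protein males were 9 to 12 weeks old when they were placed with females; no age is given for the caloric restriction male or males. Sperm was above 99.5% pure under the microscope per the labels, and preparations in which quantitative PCR found Actb or Myh11 had been rejected. The labels name no segment for the epididymal tissue and do not say which replicates are separate animals, and the p-values refer to the spread between arrays alone, which may be technical. Values are log2 intensities made with RMA, a method that corrects background, normalizes arrays and summarizes probes.

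The epithelium of the epididymis keeps its lumen acid, which holds sperm quiescent during storage. Clear cells do much of this work: they carry the vacuolar proton pump (V-ATPase) in their apical membrane, where its V1 sector hydrolyses ATP in the cytosol and its V0 sector moves protons through the membrane. Carbonic anhydrases supply the protons and bicarbonate, and in the mouse the forkhead factor FOXI1 drives expression of pump subunits and Car2 in these cells and in the related intercalated cells of the kidney. Principal cells, the main secretory cells, carry the sodium-proton exchanger SLC9A3 and the chloride and bicarbonate channel CFTR. Several pump subunits come as sets of isoforms, some widely expressed and others enriched in certain cells. Atp6v1b1, Atp6v1g3, Atp6v0a4 and Atp6v0d2 are isoforms enriched in acid-secreting cells.

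Promoters of 8 of the 10 genes were available as RefSeq windows of build GRCm38.p6, from 250 bases before to 50 after the start site. They were searched for the forkhead core GTAAACA on both strands (TGTTTAC on the other), which 3.65% of all 32851 such windows held. Of the 8 genes only Atp6v1b1 held it, 98 bases before the start site, and a match is a description of letters and not of binding. The promoters below belong to 3 genes that differ in how they lie between tissues: Atp6v1b1, of near-equal signal in both, Foxi1, lower in sperm, and Cftr, higher in sperm. They lie at chr6:83742767-83743066 on the plus strand, chr11:34208040-34208339 on the minus strand and chr6:18170437-18170736 on the plus strand, each written 5′ to 3′ along its gene, with capitals for the forkhead core.
Atp6v1b1: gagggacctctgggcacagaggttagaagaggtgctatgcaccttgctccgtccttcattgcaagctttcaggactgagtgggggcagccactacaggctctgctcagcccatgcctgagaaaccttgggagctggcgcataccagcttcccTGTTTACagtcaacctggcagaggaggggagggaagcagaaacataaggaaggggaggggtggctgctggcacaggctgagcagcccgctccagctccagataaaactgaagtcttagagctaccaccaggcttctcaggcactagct
Foxi1: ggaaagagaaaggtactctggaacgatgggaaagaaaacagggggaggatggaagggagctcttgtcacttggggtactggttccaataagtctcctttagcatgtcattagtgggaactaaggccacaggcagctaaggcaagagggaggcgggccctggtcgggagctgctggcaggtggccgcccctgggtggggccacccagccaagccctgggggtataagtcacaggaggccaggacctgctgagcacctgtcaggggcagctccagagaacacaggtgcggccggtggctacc
Cftr: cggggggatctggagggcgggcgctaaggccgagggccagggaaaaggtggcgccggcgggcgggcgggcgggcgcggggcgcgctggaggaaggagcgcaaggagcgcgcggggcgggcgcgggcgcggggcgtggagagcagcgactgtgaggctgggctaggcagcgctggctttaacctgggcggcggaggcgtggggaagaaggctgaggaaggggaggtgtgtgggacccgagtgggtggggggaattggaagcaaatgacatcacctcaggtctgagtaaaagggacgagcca
The GC content of these windows was 57.3%, 60.3% and 71.3%. For the other 5 genes with a window, Slc9a3, Car12, Atp6v0a4, Atp6v1g3 and Atp6v1a, it was 68.7%, 58.3%, 48.0%, 46.3% and 45.3%.

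Libraries and marker lists were examined first. Low protein sperm replicate 2 stood apart, with a correlation over tested genes of 0.71 to 0.86 with the other sperm arrays, against 0.85 to 0.98 among those. All 25 late germ cell markers had higher signal on every sperm array than on either epididymis array, and all 12 smooth muscle markers lower. Over all genes tested, 24.8% lay higher in this way and 35.6% lower. Several germ cell markers, among them Akap4, Spem1, Tekt2, Acrv1 and Izumo1, lay below the filter level on both epididymis arrays. Such markers passed the filter through the sperm arrays, so a difference between tissues was built into their passing. Of 17 principal cell markers with a probe set 6 passed the filter, and Lcn8, a lipocalin of the proximal epididymis, lay at 4.73 and 5.21 in epididymis, while the principal cell genes Adam7 and Lcn12 lay at 12.49 and 12.67 and at 10.78 and 10.99. On the sperm arrays Adam7 read 9.43 to 11.55.

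**Figure D1:**
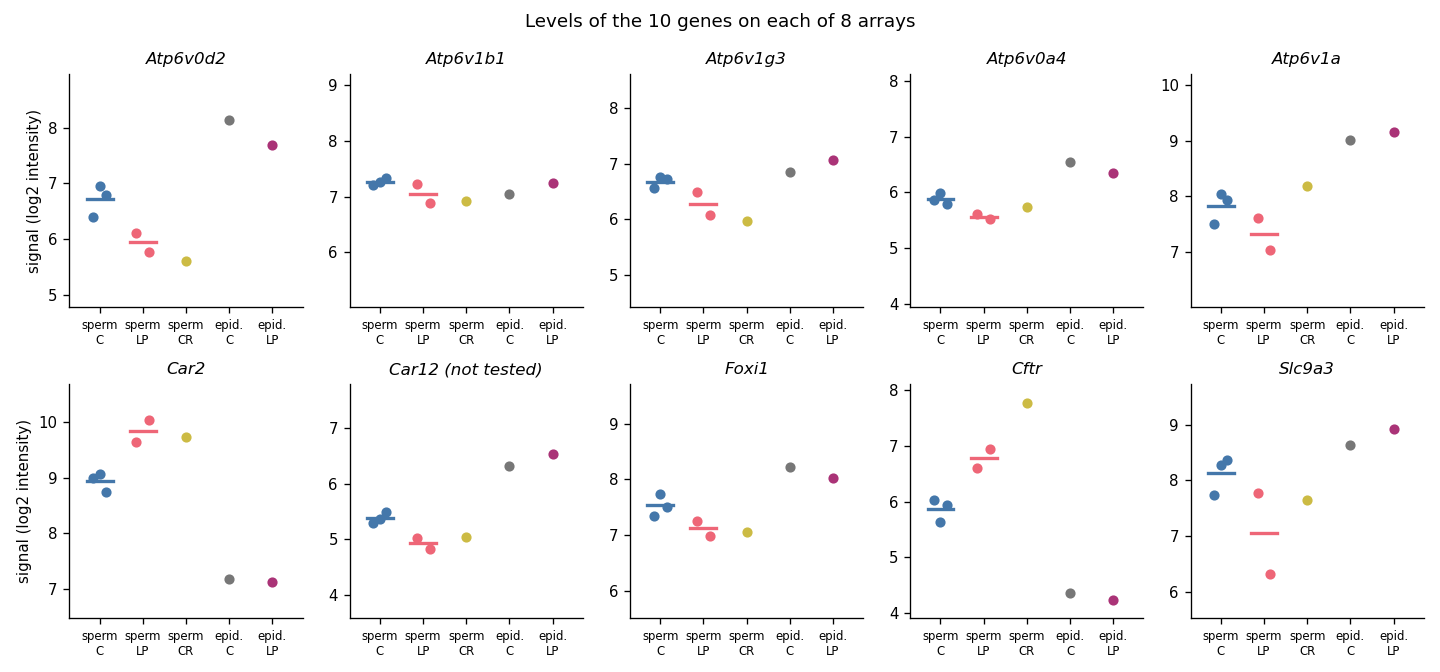
Log2 intensity of each of the 10 genes (panels, each spanning 4.2 log2 units) on the 8 arrays, by group: C control, LP low protein, CR caloric restriction, epid. epididymis; points are arrays and bars the means of groups with more than 1 array. Car2 and Cftr sit higher on all 6 sperm arrays than in epididymis, Atp6v1b1 overlaps, and the other 7 sit lower.

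Between sperm and epididymis the acidification genes moved in both directions. Of the 9 tested, Car2 and Cftr were higher in sperm, Atp6v0d2, Atp6v1a, Slc9a3, Foxi1 and Atp6v0a4 were lower, and Atp6v1b1 and Atp6v1g3 did not pass the threshold of an adjusted p of 0.05 by limma. Over all 13587 genes tested, 18.4% passed as higher and 30.1% as lower (48.5% in all), which is the background for the 7 of 9. Leaving aside Cftr, whose passing the filter had a difference built in, 6 of 8 were called. Sperm and epididymis arrays did not overlap for 2 of the 9 as higher and 6 as lower, beside 24.8% and 35.6% of all genes (60.4% either way). The median change of the 9 was -0.72 on the log2 scale, beside -0.08 for all genes. In bulk samples fewer cells of a type and less RNA per cell cannot be told apart. The fit took tissue and diet as additive terms over 8 arrays; the single caloric restriction array is absorbed by its diet term, and the tissue term rests on 5 sperm and 2 epididymis arrays, as does its standard error (SE). Of all genes called, 37.9% were higher in sperm, and 52.5% after cyclic loess.

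The membrane sector subunit Atp6v0d2, whose d2 isoform is also known from osteoclasts and macrophages, read 6.40, 6.94 and 6.79 in control sperm, 6.12 and 5.76 in low protein sperm, 5.61 in caloric restriction sperm and 8.13 and 7.69 in control and low protein epididymis. Every sperm array lay below both epididymis arrays. It fell by 1.57 ± 0.19 (SE; adjusted p by limma 0.000382), a 2.98-fold lower signal. Atp6v0a4, the a4 isoform that anchors the pump in acid-secreting membranes, read 5.87, 5.99 and 5.79 in control, 5.61 and 5.52 with low protein and 5.75 with caloric restriction, against 6.55 and 6.35 in epididymis. The tissues again did not overlap, and the gene fell by 0.72 ± 0.14 (adjusted p by limma 0.00298).

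Atp6v1a, the catalytic A subunit that every V-ATPase uses, read 7.50, 8.05 and 7.93 in control, 7.05 to 7.61 in low protein, 8.19 in caloric restriction sperm and 9.02 and 9.17 in epididymis. It was below epididymis on all sperm arrays and fell by 1.50 ± 0.23 (adjusted p by limma 0.0012). Atp6v1b1, the B1 subunit that marks clear and intercalated cells, behaved otherwise: it read 7.21, 7.26 and 7.34 in control sperm, 7.22 and 6.88 in low protein, 6.91 in caloric restriction sperm and 7.05 and 7.24 in epididymis. All 3 control sperm arrays lay above the control epididymis array, and the ranges overlapped. The difference was 0.03 ± 0.16 (95% interval -0.34 to 0.40, adjusted p by limma 0.895), and its sign turned after median centring of the arrays.

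Atp6v1g3, the G3 subunit of the stalk, read 6.56, 6.76 and 6.72 in control, 6.48 and 6.08 with low protein and 5.98 with caloric restriction, and 6.85 and 7.06 in epididymis. Its arrays did not overlap between tissues but the gap was narrow, and the difference of -0.46 ± 0.19 missed the threshold (95% interval -0.89 to -0.03, adjusted p by limma 0.0721). Foxi1 read 7.34, 7.74 and 7.51 in control, 7.26 and 6.99 with low protein and 7.05 with caloric restriction, against 8.23 and 8.02 in epididymis. No sperm array reached the epididymis, and Foxi1 fell by 0.79 ± 0.16 (adjusted p by limma 0.00458). The calls of Foxi1 and Atp6v0a4 were lost without the low protein epididymis array (adjusted p 0.0758 and 0.052 by limma), and the members called then numbered 4.

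Slc9a3 read 7.75, 8.27 and 8.37 in control, 7.78 and 6.33 in low protein, 7.64 in caloric restriction sperm and 8.64 and 8.92 in epididymis. Low protein replicate 2 was the lowest by over 1 log2 unit. The exchanger gene fell by 1.15 ± 0.42 and passed narrowly (adjusted p by limma 0.0479). That call was lost under 8 of 17 alternatives, among them quantile normalization (-0.76, adjusted p by limma 0.216) and cyclic loess (-0.67, 0.114), with an adjusted p of up to 0.49 when the low protein epididymis array was left out. Car12, the membrane-bound carbonic anhydrase that works outside the cell, had 5.30, 5.37 and 5.50 in control, 5.02 and 4.83 in low protein, 5.05 in caloric restriction sperm and 6.32 and 6.53 in epididymis. Its sperm arrays all lay below epididymis; with no filter it would have differed by -1.25 ± 0.18.

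Car2, the fast cytosolic carbonic anhydrase, had the opposite pattern. It read 8.99, 9.07 and 8.74 in control sperm, 9.64 and 10.03 in low protein sperm, 9.74 in caloric restriction sperm and only 7.19 and 7.12 in epididymis. No sperm array came within 1 log2 unit of the epididymis, and Car2 rose by 2.20 ± 0.23 (adjusted p by limma 0.000188), which is 4.60-fold; cyclic loess gave 2.91 on the log2 scale. Cftr read 6.03, 5.64 and 5.93 in control, 6.60 and 6.95 with low protein and 7.78 with caloric restriction, against 4.36 and 4.24 in epididymis. All sperm arrays lay above the epididymis, with the caloric restriction array highest. The fitted difference was 1.99 ± 0.24 (adjusted p by limma 0.00036), but the epididymal readings are not shown to be above background, so no fold is given and the call is not independent of the filter. The 25 late germ cell markers were higher on the same arrays: their mean level was 8.72 to 9.03 in control sperm, 9.46 and 9.79 in low protein, 10.01 in caloric restriction sperm and 6.36 and 6.33 in epididymis. The part of germ cell RNA in the Car2 and Cftr values was not tested.

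**Figure D2:**
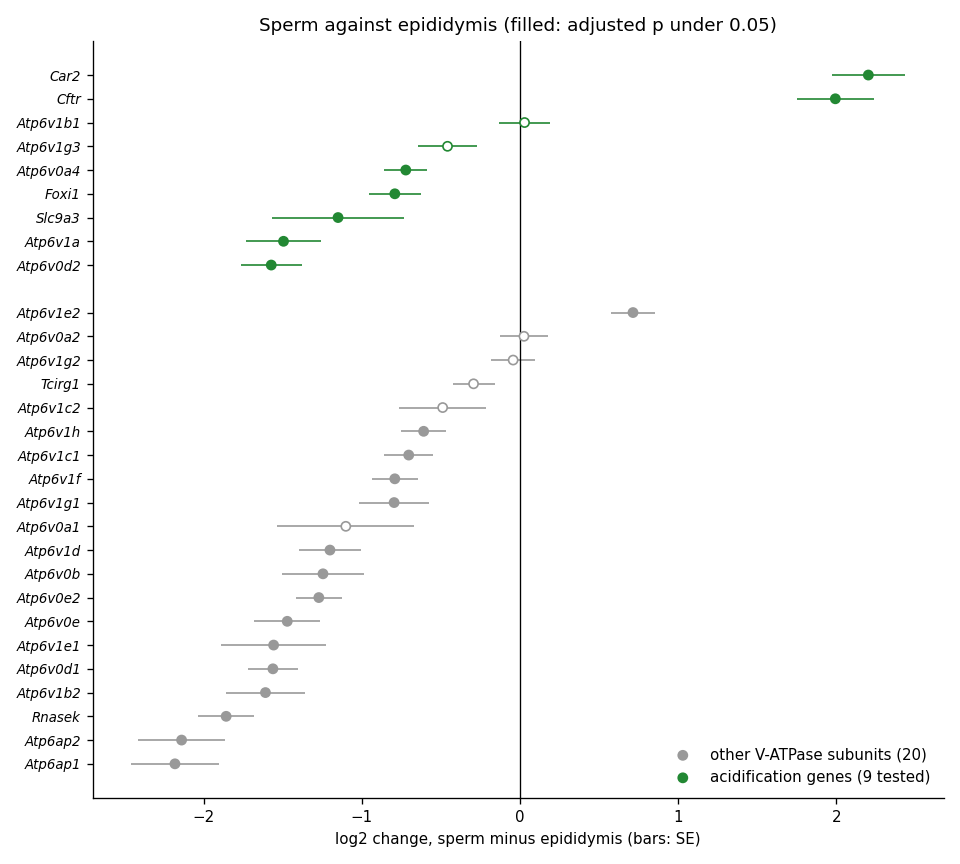
Log2 change of sperm minus epididymis (x axis) with SE for the 9 tested acidification genes (green) and 20 other V-ATPase subunits (grey); filled points have an adjusted p under 0.05. Most subunits lie left of 0, while the filled points of Car2, Cftr and Atp6v1e2 lie to the right.

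Most of the rest of the proton pump was lower in sperm. Of 20 other V-ATPase and accessory subunits tested, 14 fell, 1 rose and 5 did not pass, with a median change of -1.15, beside 30.1% of all genes lower and 18.4% higher. Only 10 fell under quantile normalization, where 19.4% of all genes did, and likewise 10 under cyclic loess, where 24% did. The accessory subunits Atp6ap1 and Atp6ap2, which help assemble and target the pump, fell by 2.18 ± 0.28 and by 2.14 ± 0.27, and Rnasek, a small pump-associated protein gene, fell by 1.86 ± 0.18. Atp6v1e2, the E2 subunit known from spermatids and the acrosome, rose by 0.71 ± 0.14, while the general E1 subunit Atp6v1e1, named after its value was seen, fell by 1.56 ± 0.33. Atp6v1e2 read 6.35, 6.47 and 6.48 in control, 6.74 and 6.95 with low protein and 7.09 with caloric restriction, and 5.62 and 6.24 in epididymis, so that the low protein epididymis array came close to the lowest sperm array. Without the control epididymis array its call was lost (adjusted p by limma 0.0593), as was that of Atp6v1e1 without the low protein epididymis array (0.0845).

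Set beside their partner isoforms, the isoforms of acid-secreting cells showed no common pattern. The B subunits lay furthest apart: Atp6v1b1 differed by 0.03 ± 0.16 and Atp6v1b2, the general B subunit, fell by 1.61 ± 0.25 (adjusted p by limma 0.00112). Atp6v1b2 read 7.76, 8.04 and 8.09 in control, 7.66 and 6.89 in low protein, 7.57 in caloric restriction sperm and 9.22 and 9.28 in epididymis, well clear of every sperm array. The d subunits moved alike in size, with log2 changes of -1.56 ± 0.16 for the general Atp6v0d1 and -1.57 ± 0.19 for Atp6v0d2. Atp6v1g1 fell by 0.80 ± 0.22 and Atp6v1g2, the G isoform of neurons, differed by -0.04 ± 0.14. The Atp6v1g1 call was lost under quantile normalization (-0.24, adjusted p by limma 0.368), cyclic loess (-0.11, 0.509) and without the low protein epididymis array (-0.50, 0.247). Among the a subunits, Atp6v0a1 differed by -1.10 ± 0.43 and Tcirg1, the a3 isoform of osteoclasts, by -0.29 ± 0.13, neither past the threshold, and Atp6v0a2 by 0.02 ± 0.15. The signs of Atp6v1g2 and Atp6v0a2 turned under other settings. Differences between partners were not tested.

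Of 21 other genes of acid and bicarbonate transport tested, 3 rose, 5 fell and 13 did not pass, with a median of -0.26. As shares these counts lie below the 18.4% and 30.1% of all genes. Those that rose include 2 sperm genes: Adcy10, the adenylyl cyclase that bicarbonate activates in sperm, rose by 3.19 ± 0.26, and Slc26a8, the testis anion transporter known to interact with CFTR, by 1.53 ± 0.21. Car15 rose by 0.61 ± 0.19. Adcy10 and Slc26a8 lay below the filter level of 5.69 on both epididymis arrays (4.42 and 4.44, and 5.15 and 5.45), and Car15 on 1 of them, so they too passed the filter through the sperm arrays. The mitochondrial carbonic anhydrase Car5b fell by 1.89 ± 0.38, the chloride-bicarbonate exchanger Slc26a3 fell by 1.62 ± 0.47, the sulfate transporter Slc26a2 fell by 1.25 ± 0.36 and the membrane-bound Car14 fell by 1.20 ± 0.24. Of 8 tested genes known from kidney intercalated cells, the transcription factor gene Hmx2 rose by 0.56 ± 0.17, the Notch ligand gene Jag1 fell by 0.61 ± 0.16 and 6 did not pass. Slc26a4, the pendrin gene of such cells, lay at 4.41 and 4.44 in epididymis and did not pass the filter. Without the low protein epididymis array, the calls of Car5b, Slc26a3, Slc26a2, Car14, Car15, Hmx2 and Jag1 were lost (adjusted p by limma 0.0684 to 0.27, with Slc26a3 at -0.98). Those of Slc26a3, Slc26a2 and Car15 were also lost under quantile normalization (0.0734, 0.0751 and 0.0866 by limma), and that of Car15 with tissue alone (0.0672). Without the control epididymis array the calls of Hmx2, Car15 and Jag1 were lost (0.199, 0.102 and 0.0845 by limma). Without control sperm replicate 1 those of Hmx2, Car15 and Slc26a3 were lost (0.0584, 0.0598 and 0.0526 by limma), and without replicate 2 that of Hmx2 (0.0575).

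**Figure D3:**
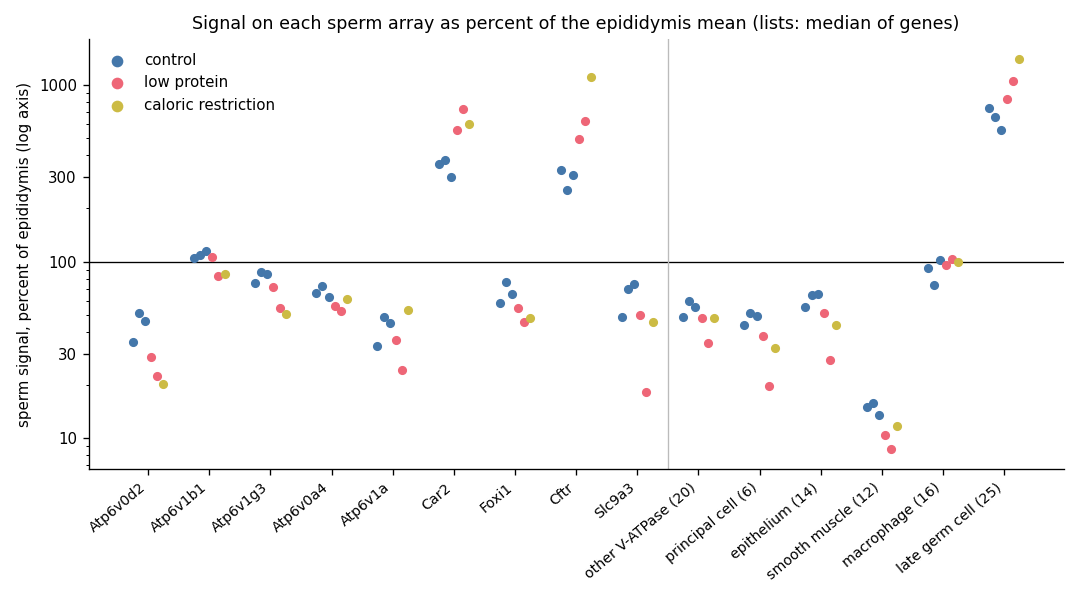
Signal on each of the 6 sperm arrays as a percent of the mean of both epididymis arrays (y axis, log scale; the line marks 100%), for the 9 tested genes and, right of the grey line, the median over marker lists with the number of genes in brackets. Atp6v1b1 lies near 100%, Car2 and Cftr above 100% on all 6 arrays (for Cftr against epididymal readings below the filter level), and smooth muscle markers lowest, at 8.63% to 15.9%.

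Expressed as a share of the epididymal signal, control sperm held 44.2% ± 8.23 (SD, n = 3) for Atp6v0d2, 42.1% ± 8.04 for Atp6v1a, 64.7% ± 13.9 for Slc9a3, 66.7% ± 9.36 for Foxi1, 67.6% ± 4.78 for Atp6v0a4, 82.6% ± 5.92 for Atp6v1g3 and 109% ± 4.79 for Atp6v1b1. The shares were not corrected for array background, and each rests on 1 probe set. Marker lists measured the same way give the frame: 48.0% ± 3.88 (SD, n = 3) for 6 principal cell genes, 61.7% ± 5.39 for 14 general epithelial genes, 14.8% ± 1.21 for 12 smooth muscle genes, 65.1% ± 3.16 for 5 endothelial genes, 61.5% ± 8.00 for 9 fibroblast genes, 105% ± 8.89 for 8 intercalated cell genes, 89.3% ± 14.6 for 16 macrophage and leukocyte genes and 54.6% ± 5.57 for the 20 other V-ATPase subunits. For 7 basal cell genes the share was 57.0% ± 2.19. These SDs are of a list's median over 3 arrays and not of its genes. Car2 reached 345% ± 39.6, and 485% under cyclic loess; no share is given for Cftr, whose epididymal signal lay below the filter level.

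The diet question is whether the father's diet is reflected in sperm RNA. In low protein sperm none of the 9 tested genes passed against control by limma, as none of 13587 genes did (0%). At an unadjusted p under 0.05, 2 of the 9 were higher and 2 lower, beside 11.9% and 13.1% of all genes (25.1% either way). Low protein and control arrays did not overlap for 6 of the 9, 2 higher and 4 lower, where 18.8% and 22.4% of all genes did so (41.1% either way). By both rules the 2 higher were Car2 and Cftr. Cftr passed the filter in part through its bright low protein and caloric restriction arrays.

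Car2 differed by 0.90 ± 0.19 (adjusted p by limma 0.0847) and Cftr by 0.91 ± 0.19 (0.0847), both with low protein replicates above all 3 controls. Atp6v0d2 differed by -0.77 ± 0.21 (adjusted p by limma 0.117) and Slc9a3 by -1.08 ± 0.40 (0.166). The remaining 5 lay at -0.50 for Atp6v1a, -0.41 for Foxi1, -0.40 for Atp6v1g3, -0.32 for Atp6v0a4 and -0.22 for Atp6v1b1. Car12, with no filter, would have differed by -0.46 ± 0.17. Several of the negative differences rested on low protein replicate 2, the array that stood apart: without it Slc9a3 differed by -0.35, Atp6v1a by -0.22, Atp6v1g3 by -0.20 and Atp6v1b1 by -0.04, while Atp6v0d2 kept -0.60, Car2 0.70 and Cftr 0.73. Without replicate 1, 6 of the 9 passed by limma, as did 5155 of 13587 genes; the lone low protein array is then the one that stood apart, and the 3 controls alone supply the spread: Car2 and Cftr higher, and Slc9a3, Atp6v0d2, Atp6v1a and Atp6v1g3 lower.

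**Figure D4:**
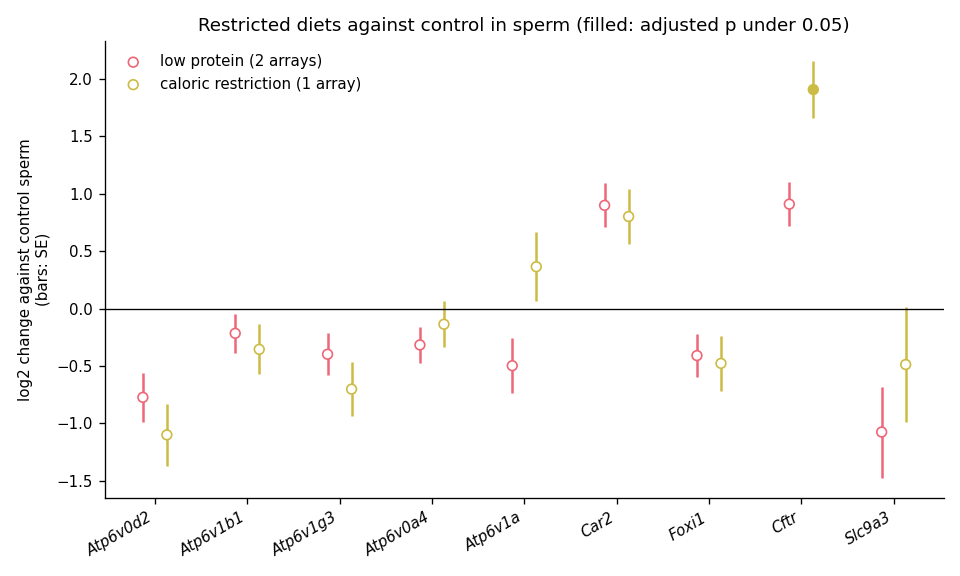
Log2 change against control sperm (y axis) with SE for the 9 tested genes under low protein and under caloric restriction; both comparisons use the same 3 control arrays, and filled points have an adjusted p under 0.05. Car2 and Cftr lie above 0 under both diets, 6 genes lie below, and Atp6v1a lies on either side.

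In the caloric restriction array 1 of the 9 passed, Cftr, which rose by 1.91 ± 0.25 (SE; 1 against 3 arrays, adjusted p by limma 0.00451) to 3.75-fold the control level. The fit has no spread within caloric restriction and assumes for its 1 array the spread of the control and low protein arrays. Cftr passed the filter in part through its bright restricted diet arrays, so its call here is not independent of the filter. Its fold is set against dim control readings, 1 of them below the filter level. Over all genes 5.56% passed, nearly all of them higher (5.53%, against 0.0368% lower). Car2 differed by 0.80 ± 0.24 (adjusted p by limma 0.124), Atp6v0d2 by -1.10 ± 0.27 (0.0595) and Atp6v1g3 by -0.70 ± 0.23 (0.161). Atp6v1a was the gene whose sign was not that seen under low protein, at 0.36 ± 0.30, and the last 4 lay at -0.49 for Slc9a3, -0.48 for Foxi1, -0.36 for Atp6v1b1 and -0.14 for Atp6v0a4. Without low protein replicate 1, and equally without replicate 2, Car2, Atp6v0d2 and Atp6v1g3 passed as well, as did 2021 of 13587 genes, against 756 with all arrays. Since both diets were set against the same controls, agreement between them is not independent.

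With the 3 restricted arrays together against the 3 controls, Car2 rose by 0.87 ± 0.17 (adjusted p by limma 0.0411), the only call among the 9, beside 2.75% of all genes (2.72% higher and 0.0294% lower). At an unadjusted p under 0.05, 2 of the 9 were higher and 4 lower, beside 12.5% and 14% of all genes (26.4% either way). The Car2 call was lost without any 1 of the controls or the caloric restriction array, with adjusted p by limma between 0.0847 and 0.251, and also under quantile normalization, cyclic loess and eBayes with a trend (0.053, 0.0599 and 0.0744). Cftr differed by 1.24 ± 0.28 (adjusted p by limma 0.0503) and Atp6v0d2 by -0.88 ± 0.20 (0.052), each just short. Cftr passed under quantile normalization (0.0421 by limma), where Car2 did not, and with probe set means (0.0483). Without low protein replicate 2 Cftr passed as higher and Atp6v0d2 as lower, at 0.0319 and 0.0445 by limma, and without replicate 1 at 0.0216 and 0.0292. Restricted and control arrays did not overlap for Car2 and Cftr, which were higher, and for Atp6v0d2, Atp6v1g3, Atp6v0a4 and Foxi1, which were lower. Over all genes 15% and 18.1% did so in these directions (33.1% in all). Cftr passed the filter in part through its bright restricted arrays, so its place here is not independent of the filter. The members not past the threshold otherwise lay at -0.88 for Slc9a3, -0.50 for Atp6v1g3, -0.43 for Foxi1, -0.26 for Atp6v0a4 and Atp6v1b1 and -0.21 for Atp6v1a, the last at 0.07 without low protein replicate 2. Of the 20 other V-ATPase subunits none passed by limma, 1 having an unadjusted p under 0.05 as higher and 7 as lower, and Adcy10 rose by 1.23 ± 0.19 (adjusted p by limma 0.0411). The Adcy10 call was lost without any 1 of the controls or the caloric restriction array (0.0847 to 0.251 by limma).

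Tissue markers also differed in level between these arrays. The mean level of 14 general epithelial markers was 8.23 to 8.52 in control, 8.02 and 7.29 with low protein and 7.86 with caloric restriction. All 14 had a lower mean in restricted than in control sperm, none past the threshold by limma. Each had an unadjusted p under 0.05, where 14% of all genes had one as lower. For these 14 markers the median share of the epididymal signal went from 61.7% ± 5.39 (SD, n = 3) in control to 50.8% and 27.6% with low protein and 43.7% with caloric restriction. For the 6 principal cell genes it was 48.0% ± 3.88 (SD, n = 3), then 37.7% and 19.8%, and 32.5%. For 12 smooth muscle genes it was 14.8% ± 1.21 (SD, n = 3), then 10.4% and 8.63%, and 11.7%. Of these 12, 11 had a lower mean in restricted sperm and 1 a higher one, with 6 lower at an unadjusted p under 0.05 by limma. Other lists did not all go down. For 7 basal cell genes it was 57.0% ± 2.19 (SD, n = 3), then 62.7% and 73.8%, and 65.7%. Yet 5 of these 7 had a lower mean in restricted sperm and 2 a higher one. For 9 fibroblast genes it was 61.5% ± 8.00 (SD, n = 3), then 48.8% and 39.4%, and 65.0%. All 9 had a lower mean in restricted sperm. Macrophage and leukocyte genes, which include cells known to use Atp6v0d2, lay at a mean of 6.70 to 7.25 in control and 7.19 to 7.34 on the 3 restricted arrays. All 25 late germ cell markers had higher means under both diets, with a median change of 0.98 in caloric restriction sperm. With the restricted arrays together 6 passed the threshold by limma, beside 2.72% of all genes as higher. In low protein sperm 0 passed, as over all genes (0%). There 24 were higher at an unadjusted p under 0.05, beside 11.9% of all genes. The part of these shifts in the diet differences of Atp6v0d2, Slc9a3, Foxi1, Car2 and Cftr was not tested. Of the late germ cell markers, Spaca1 read 5.65, 5.50 and 5.66 in control sperm, below the filter level. It passed the filter through the restricted arrays, so its diet difference is not independent of the filter. The same holds for Catsper1 and Catsper3. In control sperm Catsper1 read 5.94, 5.62 and 5.73 and Catsper3 6.10, 5.78 and 6.04. In epididymis they read 4.48 and 4.92, and 4.68 and 4.92.

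In the epididymis itself, with 1 array per diet and no test, the 9 genes differed by a median of 0.20 in size, beside 0.11 over all genes. Low protein minus control was -0.44 for Atp6v0d2, -0.20 for Foxi1 and for Atp6v0a4, -0.12 for Cftr, -0.07 for Car2, 0.15 for Atp6v1a, 0.19 for Atp6v1b1, 0.21 for Atp6v1g3 and for Car12, and 0.28 for Slc9a3. Over all tested genes the SD of this difference was 0.19. Atp6v0d2 was thus the member furthest from 0, with a negative difference here as in sperm. The mean level of 16 macrophage and leukocyte genes was 7.29 in control and 6.85 in low protein epididymis. That list includes cells known to use Atp6v0d2, and their part in its difference was not tested.

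The low protein effect in sperm was then set against that in epididymis over all 8 arrays, with a mean per group. Each epididymis group is 1 array here, so the spread comes from control and low protein sperm alone and is assumed to hold for epididymis. No member passed by limma, as no gene did (0%), while 610 genes (4.49%) had an unadjusted p under 0.05. At that level 2 of the 9 were higher and 0 lower, beside 4.06% and 0.434% of all genes. The difference between tissues was 1.03 ± 0.36 for Cftr and 0.96 ± 0.35 for Car2 (adjusted p by limma 0.875 for both), -1.36 ± 0.73 for Slc9a3 and -0.33 ± 0.39 for Atp6v0d2. The other 5 lay from -0.64 for Atp6v1a to -0.12 for Atp6v0a4. Cftr lay below the filter level in epididymis. Without low protein sperm replicate 1, Cftr, Car2 and Slc9a3 passed by limma, as did 1639 of 13587 genes, with the 3 control sperm arrays alone supplying the spread.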

How the data were processed

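The deposited table holds log2 intensities, 1 per probe set and array, made by the authors with RMA per the submitters' processing notes; no source used here gives its version or probe annotation. Values ran on a log2 scale, judged by their range (1.17 to 14.53, array medians 6.08 to 6.17). Of 33660 probe sets, 21222 carried 1 gene, 1541 several and 10897 none here; symbols of 21137 were taken from RefSeq GRCm38.p6, used for names only. The brightest probe set by mean stood for a gene.

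Tests used limma 3.58.1 in R 4.3.3 (lmFit, eBayes, two-sided, Benjamini-Hochberg over 13587 genes). Each fit was tried on simulated arrays with independent noise of the control sperm spread in every group. In these data low protein sperm replicate 2 stood apart, so the trial checks how the fits run and not their error rates here. No 2 arrays were identical, and the number of arrays limits the precision. Alternatives were other normalizations, filters, probe set means, variance models and leaving out arrays. The members and the gene lists were chosen with earlier results of these data known. The text names all members, isoform partners and up to 4 of the largest called changes each way per pathway list. A call means an adjusted p under 0.05. For a percent of epididymis, 2 was raised to the log2 difference from the epididymis mean.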

Additional observations from a re-analysis of the deposited data

How the results depend on the processing

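Among the 9 tested genes, the number called between sperm and epididymis was 7, and 4 when the dimmest 50% of genes were left out, a filter that removes Cftr and Atp6v0a4 from the test and under which Slc9a3 missed the threshold (adjusted p by limma 0.0546); leaving out single arrays gave 4 to 8. For low protein sperm it was 0 (0 to 6 without single arrays), for the difference of that effect between tissues 0 (0 to 3), and for caloric restriction 1 (1 to 4), 0 under the 50% filter and 2 with an eBayes trend. For the restricted diets together it was 1 (0 to 4), 0 after cyclic loess and with a trend, and 2 with probe set means. Each member has 1 probe set, so probe set means left member values unchanged and acted through the other genes alone. The cause of the other moves was not tested. Atp6v1b1 between tissues turned to -0.0175 after median centring and -0.0070 with tissue alone, and ran from -0.19 to 0.22 without single arrays. Atp6v1g2 turned to 0.15 and 0.17 after quantile normalization and cyclic loess, and ran from -0.10 to 0.0074 without single arrays. Atp6v0a2 turned to -0.0214 (median centring) and -0.32 (probe set means), and ran from -0.0287 to 0.0693 without single arrays. Atp6v1a under the restricted diets ran from -0.498 to 0.0741, the latter without low protein replicate 2.

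The median share of the epididymal signal over the 9 genes in control sperm was 72.8%, and 85.9% and 83.5% after quantile normalization and cyclic loess. These moved the median tissue change of all genes from -0.08 to 0.02 and 0.06, and the share of all tissue calls that were higher from 37.9% to 47.8% and 52.5%. Of all genes, 6594 were called between tissues, 2748 without the low protein epididymis array. Without low protein replicate 1, low protein calls went from 0 to 5155 and calls of the difference between tissues from 0 to 1639. Other counts moved too: caloric restriction calls from 756 to 500 after quantile normalization and to between 298 and 2021 without single arrays, and restricted diet calls from 373 to between 0 and 1428 (197 under the 50% filter, 168 with a trend). In epididymis 5 of 9 genes were lower under low protein in all settings tried. Over all tested genes 7227 of 13587 were lower in the main setting, a similar share. No paired analysis was possible because the labels give letters that tie no arrays together. Arrays without detection calls do not show which dim levels are above background.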

Other observations

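Car4, a carbonic anhydrase anchored to the outer cell membrane and named here after its values were seen, read 7.42 in control and 5.59 in low protein epididymis. On the sperm arrays it lay at 5.28 to 5.51 in control, 5.42 and 6.07 with low protein and 5.74 with caloric restriction. The epididymal values rest on 1 array per diet, and no test is given for a gene picked in this way.

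By a rule of likeness, Ndel1, Mrfap1, Cbx5, Eif4g2 and Chmp1a followed the mean of the 9 tested genes most closely over the 8 arrays. Pearson's r was 0.98 to 0.99, picked as the highest of all tested genes and given as a description. The arrays fall into 2 tissues, and the mean combines genes that rose with genes that fell.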
